A study of Mus musculus with 4 samples.

Results

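Lung cells that had been cultured for 3 weeks in medium with doxycycline and then for 2 weeks without it were set against club cells measured as isolated, gene by gene. The question was which genes had come back to the level of the fresh cells after the drug was withdrawn, and which had not. The comparison used 2 of the 4 Affymetrix arrays of the series and kept every named gene whose brighter array reached 6.67, the median of all values on the 4 arrays. This left 13079 of 23185 named genes. Cabp7, at 6.6691 on its brighter array, lay just inside that limit, and Fgf17, at 6.6689, lay just outside it.

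The fresh population, Day0, is given as club cells of adult mouse lung, without culture. The population 3w+Dox, named Club-iPL in the labels, was grown in doxycycline medium for 3 weeks. The population 3w+Dox+2w-Dox, called the withdrawn cells here, had the same 3 weeks followed by 2 weeks in medium free of the drug. The remaining array held iPS cells derived from club cells and enters no comparison here. Every population comes from lung of adult mice. Cultures were kept at 37°C with 5% CO2. The series has no club cells cultured for the same times without doxycycline. Differences due to the drug, to culture, to time in culture and to withdrawal therefore cannot be told apart. Phrases below such as "on the drug" and "after withdrawal" say which array was read, not what caused a difference. Strain, sex, genotype and transgenes are not named in the labels, nor are a sort that purified the fresh cells or feeder cells under the cultures.

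Club cells are dome-shaped secretory cells that line the small airways. They make secretoglobins and antimicrobial proteins, carry a large set of detoxifying enzymes, and can act as progenitors that renew themselves and give rise to ciliated cells. Ciliated cells carry motile cilia, whose axoneme of microtubules is moved by dynein motors, and Foxj1 and the geminin-family factors Gmnc and Mcidas switch on the genes that build them. Doxycycline is the drug most used to switch inducible transgenes on and off, and the title of the series names an interrupted reprogramming of mature epithelial cells into progenitor-like ones.

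All values are log2 signals from RMA, on which 1 unit is a 2-fold difference. With 1 array for each population no spread between replicates can be estimated, so no p-value, error or test accompanies any value below. The medians of the Day0 and withdrawn arrays were 6.60 and 6.74, and their signals correlated across the named genes with r = 0.908, as a description of these arrays since genes are not independent replicates. At Day0 some markers of other lung cells were bright beside the club cell gene Scgb1a1 (13.52): Sftpc of alveolar type 2 cells read 13.49, Ager of alveolar type 1 cells 11.59 and Foxj1 11.19. Others were below 6.67 there, among them Rtkn2 (5.75) and Akap5 (6.48) of alveolar type 1 cells and Krt5 of basal cells (6.20). So were Pecam1 of endothelium (5.50), Ptprc of leukocytes (4.70) and Pdgfra of fibroblasts (5.64). Values on these arrays end at 13.85, so differences among the brightest genes can be compressed. In RNA from a whole population, fewer cells of a type and less RNA per cell cannot be told apart, which holds for every result below.

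Most genes lay close to the fresh cells after withdrawal. Of the 13079 genes, 9458 (72.3%) were within 2-fold of Day0, and 2252 lay between 2- and 4-fold. The larger differences were mostly upward: 939 genes (7.18%) were at least 4-fold higher in withdrawn cells and 430 (3.29%) at least 4-fold lower. The tails were more uneven still, with 511 genes higher and 124 lower at 8-fold, and 112 higher and 10 lower at 32-fold. The median difference over all kept genes was -0.10, and 90% of them lay between -1.72 and 2.59. Counts for the gene lists below are to be read beside these shares: 72.3% within 2-fold, 7.18% higher and 3.29% lower. A gene bright on only 1 of the arrays had to be brighter there, so for some lists the median over all measured members is given too. Gpr153 (2.0005) and Lurap1 (-2.0031) lay just inside the 4-fold limits, and Myl4 (1.9959) and Ttc29 (-1.9952) just outside.

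The largest decreases were in Sult1d1, a sulfotransferase, and Cyp4f15, a cytochrome P450 of fatty acid metabolism. Sult1d1 read 10.78 at Day0, 3.15 at 3w+Dox and 2.91 in withdrawn cells, and Cyp4f15 read 11.52, 4.23 and 5.41. Their order rests on background: as measured the differences were -7.87 and -6.10, but with signals below the 25th percentile of all values (5.07) raised to it Sult1d1 stood at -5.71 and Cyp4f15, unaffected, came first with a 68.8-fold deficit. Both had gone at 3 weeks of doxycycline and stayed far below Day0. The other 13 of the 15 largest decreases included the bile acid transporter relative Slc10a5, Cyp2a4, Kdr, a receptor for VEGF, the complement component C6, the secreted antimicrobial protein Bpifa1, the vitamin C transporter Slc23a1, the transcription factor Stat4, the carboxylesterase Ces1f, the ammonium transporter Rhbg, the amino acid transporter Slc6a15, the interleukin-1 family cytokine Il1f9, Cnksr2 and Itprid1. With the same floor Slc10a5 stood 45.3-fold and Cyp2a4 6.94-fold below Day0. Il1f9 (9.08, 6.42 and 4.05) and Slc6a15 (9.49, 6.35 and 4.70) were lower after withdrawal than at 3w+Dox.

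Most of the 15 largest increases were in genes of extracellular matrix and its remodelling. Aspn, a small proteoglycan, read 4.20 at Day0, 12.32 at 3w+Dox and 11.96 in withdrawn cells. The metalloproteases Mmp13 (3.85, 10.86 and 11.56) and Mmp2 (5.23, 12.40 and 12.89) and the collagen cross-linking enzyme Lox (5.78, 13.26 and 13.21) stood beside it. As measured Aspn and Mmp13 led with differences of 7.76 and 7.71. Their Day0 values lie below 5.07, and with that floor they stood at 6.89 and 6.49, behind Mmp2 (7.66, 203-fold) and Lox (7.42). The 15 also held S1pr3, Egln3, Col12a1, Postn, Timp1, Thbs2, Ms4a7, Tnc, Lum, Mmp3 and Gask1b. Ms4a7 is a gene of macrophages. Each of the 15 was already far above Day0 at 3w+Dox. Mmp3 (5.43, 11.36 and 12.38) and Ms4a7 (4.45, 10.56 and 11.46) were still higher after withdrawal.

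**Figure D1:**
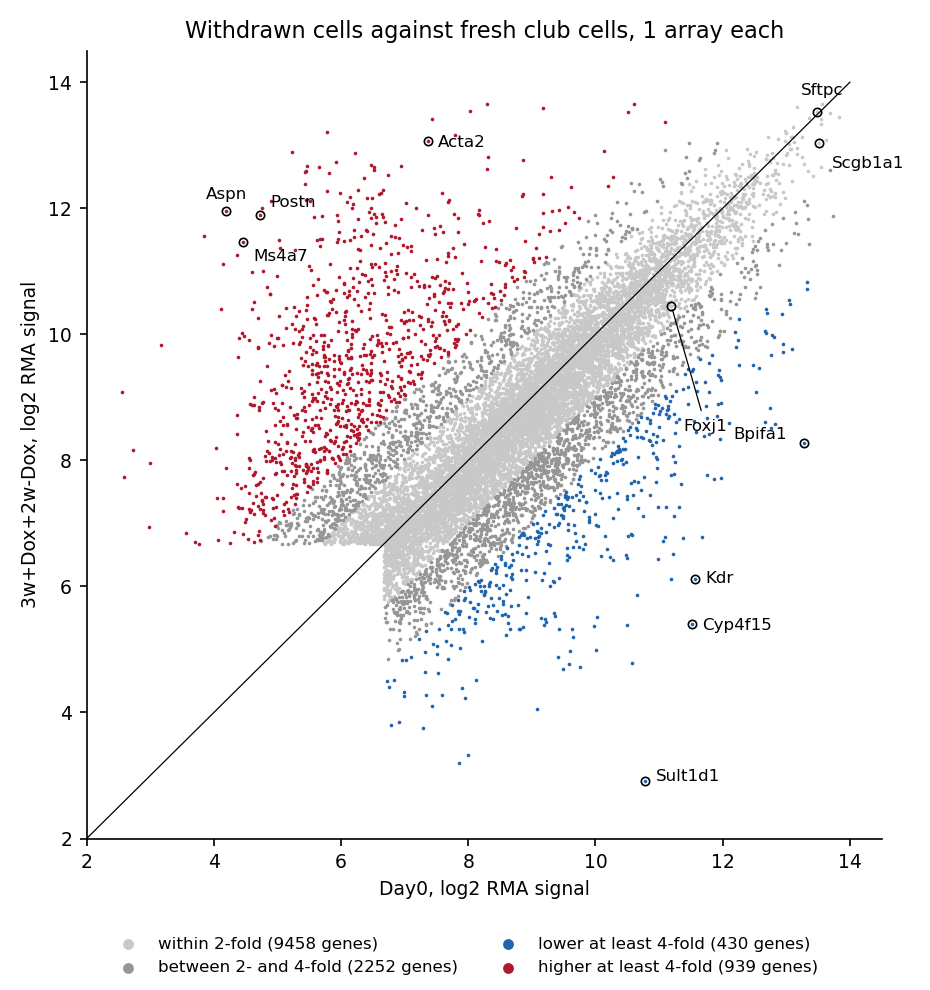
Log2 RMA signal of 13079 kept genes at Day0 (horizontal) and in withdrawn cells, 3w+Dox+2w-Dox (vertical), 1 point per gene; the line marks equal signal and colours mark the size of the difference. The 939 genes at least 4-fold higher reach further from the line than the 430 genes at least 4-fold lower, while Scgb1a1, Sftpc and Foxj1 lie near it.

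To ask what had come back, each gene that differed at least 4-fold between 3w+Dox and Day0 was followed to the withdrawn array. Both differences are taken from the same Day0 array, so an error in a gene's Day0 value would enter both. Because genes were chosen by a large difference at 3w+Dox, errors on that array alone would make withdrawn values seem nearer to Day0. How much of the shifts below this accounts for was not tested. Of 13109 genes bright enough in that comparison, 667 (5.09%) were lower at 3w+Dox and 1000 (7.63%) were higher. The limit of 6.67 was applied to the brighter of 3w+Dox and Day0, so a high gene could be dim both at Day0 and after withdrawal. Of the 667 low genes, 31 (4.65%) had come back to within 2-fold of Day0, 298 (44.7%) lay between 2- and 4-fold, and 338 (50.7%) were still at least 4-fold low. The middle group asked for no minimum rise, and Ager entered it with a move from -2.09 to -1.80. The median difference of the 667 genes was -2.78 at 3w+Dox and -2.01 after withdrawal. Of the 1000 high genes, 76 (7.6%) were back within 2-fold, 118 (11.8%) lay between 2- and 4-fold, 802 (80.2%) were still at least 4-fold high and 4 had crossed to more than 2-fold below Day0. Their median difference hardly moved, from 3.02 to 3.00. Taken gene by gene, the median share of the log2 difference undone was 25.5% for the low genes (quartiles 7.19% and 45.2%) and 0.583% for the high genes (quartiles -9.43% and 15.6%).

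Cilium genes moved part of the way back toward Day0. Over 3 lists of axoneme genes (dynein arms; radial spokes, central pair and nexin link; microtubule inner proteins, tektins and other cilium proteins), 91 genes were kept, and 90 of them read below Day0 in withdrawn cells. Their median difference was -1.40, a 2.63-fold deficit, where it had been -2.81 at 3w+Dox. The deficit was narrow in range: the quartiles were -1.62 and -1.12, against -3.50 and -2.23 at 3w+Dox, and 67 of the 91 genes lay between 2- and 4-fold below Day0. Of the 91, 8 were still at least 4-fold lower, 16 were within 2-fold and 0 were higher. Of the genes of these lists, 75 had been at least 4-fold low at 3w+Dox. After withdrawal 6 were back within 2-fold, 61 lay 2- to 4-fold below Day0 and 8 were still at least 4-fold low.

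In the list of dynein arms, 24 genes were kept and 1 was at least 4-fold lower, with a median of -1.39. Dnah5, a heavy chain of the outer arm, read 8.87 at Day0, 5.57 at 3w+Dox and 7.30 in withdrawn cells. The heavy chains Dnah3 (8.87, 5.09 and 6.93) and Dnah6 (9.36, 5.64 and 7.67) were close to it. Of the members at least 4-fold low at 3w+Dox, Dnah12 (8.34, 5.25 and 7.49) and Dnah2 (7.37, 5.19 and 6.43) had come nearest, each within 2-fold of Day0. Dnah7a stood furthest at 6.99, 3.31 and 4.32, but its withdrawn value lies below 5.07, and with that floor its difference was -1.93 in place of -2.67.

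Radial spoke and central pair genes gave the same picture, with 2 of 32 kept genes at least 4-fold lower and a median of -1.33. Rsph4a, a radial spoke head protein, read 11.17, 6.18 and 8.95 at Day0, at 3w+Dox and after withdrawal. Iqca (9.14, 5.64 and 6.92) was the other member still at least 4-fold low. Spef1 (9.69, 7.32 and 8.68) and Spag17 (8.02, 5.01 and 6.93), both of the central pair, stood near the 2-fold line. Among microtubule inner proteins, tektins and other cilium proteins, 5 of 35 kept genes were still at least 4-fold lower and the median was -1.49. Agr3, a disulfide isomerase relative that controls ciliary beating, had the largest deficit of the 3 lists (10.001, 3.89 and 7.15), followed in its list by Sntn, a protein of the ciliary tip (11.12, 5.44 and 8.79). Meig1 (11.15, 6.81 and 10.46), Cfap126 (10.31, 7.85 and 9.85), Morn5 (7.21, 5.07 and 6.69) and Tppp3 (12.48, 9.82 and 11.48) were all within 2-fold of Day0.

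The factors that govern cilium formation had a median closer to Day0 than that of the axoneme genes, though not every member did. Of 21 kept regulators, 13 (61.9%) were within 2-fold of Day0, against 72.3% of all kept genes. At least 4-fold lower was 1 (4.76%), against 3.29%. The median was -0.74. At 3w+Dox it had been -1.40, which was also closer to Day0 than the axoneme median of -2.81 on that array. Foxj1, which turns on the axoneme genes, gave 11.19 at Day0, 7.99 at 3w+Dox and 10.45 in withdrawn cells. Mcidas, which starts the multiciliated programme, read 8.16, 6.76 and 7.87. Deup1, a builder of the many centrioles these cells need, read 8.75, 5.69 and 7.86. Ccna1, a cyclin, was above its fresh level at 8.27, 5.81 and 8.99. Gmnc, which acts upstream of Mcidas and Foxj1, read 10.28, 5.22 and 6.42. It was still 14.5-fold below Day0, the furthest of the list. The factors Myb (10.34, 7.48 and 8.65) and Trp73 (7.78, 5.98 and 6.44) came next, with differences of -1.69 and -1.34 that lie near the axoneme median of -1.40. Rfx2 and Rfx3, which bind X-box motifs in cilium promoters, were 2.25-fold and 2.22-fold below Day0. Of 13 kept dynein assembly factors, which fold and preassemble the motors in the cytoplasm, 0 were at least 4-fold lower and the median was -1.02. Over all 16 measured assembly factors it was -0.75. Lrrc6 (8.64, 4.77 and 7.13) and Zmynd10 (9.12, 5.58 and 7.85) were the members with the largest loss at 3w+Dox.

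**Figure D2:**
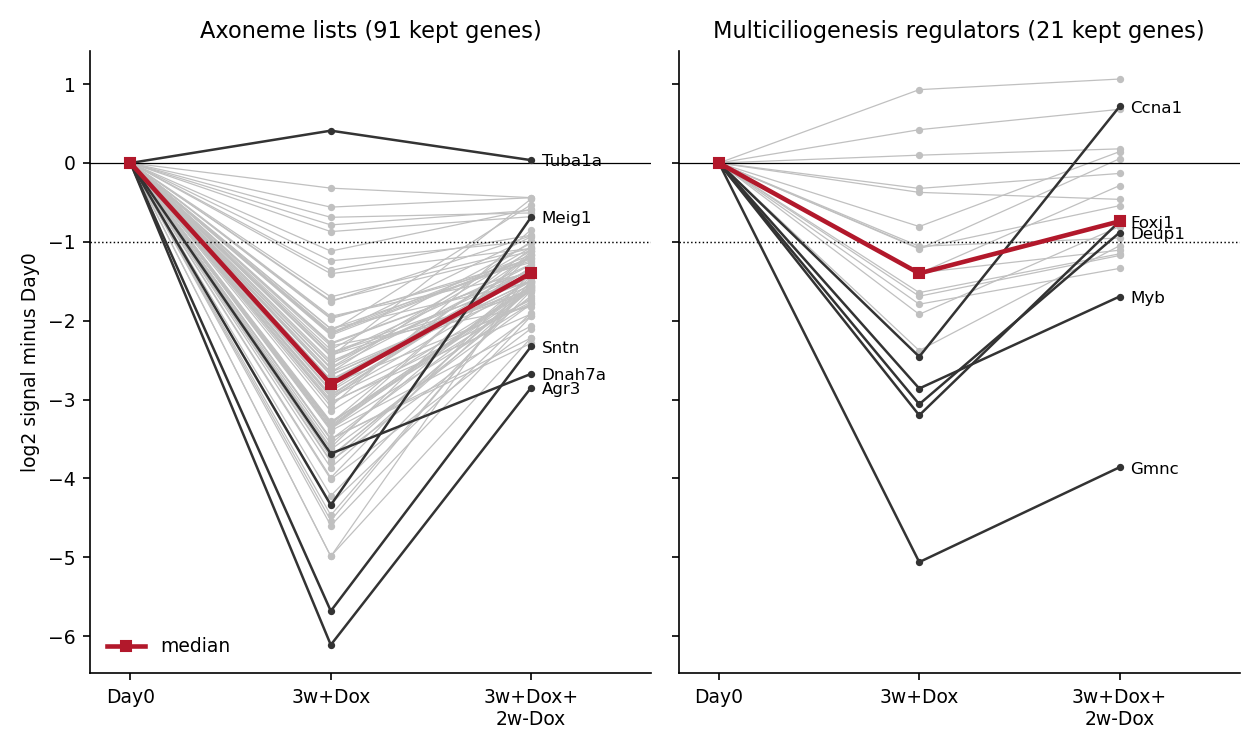
Log2 signal minus Day0 (vertical) on the Day0, 3w+Dox and 3w+Dox+2w-Dox arrays for 91 axoneme genes (left) and 21 regulators of multiciliated cells (right); grey and dark lines are genes, the red line is the median and the dotted line marks 2-fold below Day0. After withdrawal the axoneme genes gather around -1.40 and the regulators around -0.74, with Gmnc apart at -3.86.

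Promoters of the cilium genes were searched because these genes moved together. A pair of short motifs was sought on both strands in the RefSeq promoter table of build GRCm38.p6, which covers 250 bases before each transcription start and 50 after it: GTTGCCA, an arm of the X-box that RFX factors bind, and GTAAACA, a core site of forkhead factors. Of 97 measured axoneme genes, 83 had an entry, with 93 promoters. GTTGCCA was found in 16 of the 93 (17.2%) and in 5 of 24 promoters of the regulators (20.8%), against 1439 of 32851 promoters of all genes (4.38%) and 553 of 13071 promoters of the genes kept here (4.23%). GTAAACA was found in 5 of the 93 (5.38%) and 1 of the 24 (4.17%), against 3.65% of all promoters and 335 of 13071 of the kept genes (2.56%). In 38 promoters of fibroblast genes GTTGCCA was found in 1 and GTAAACA in 2. The motifs overlapped in 0 promoters. A match is a stretch of letters and does not show binding. For 1 chromosome, included in the shares above, no windows were drawn. From the other cilium genes with GTTGCCA before the start, the 6 that gained most signal between 3w+Dox and withdrawal were taken. Their 60-base windows are below, to show how the motif sits. They run 5′ to 3′ on the strand of the gene, with GTTGCCA or its reverse complement in capitals.
Sntn, chr14:13670784-13670843, plus strand: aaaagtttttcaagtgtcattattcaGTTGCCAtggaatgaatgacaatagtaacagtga
Lrrc23, chr6:124779733-124779792, minus strand: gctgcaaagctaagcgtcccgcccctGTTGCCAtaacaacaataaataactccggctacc
Deup1, chr9:15627893-15627952, minus strand: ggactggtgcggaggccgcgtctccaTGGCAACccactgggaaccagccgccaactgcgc
Hydin, chr8:110266917-110266976, plus strand: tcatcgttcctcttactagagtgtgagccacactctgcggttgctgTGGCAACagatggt
Cfap44, chr16:44394739-44394798, plus strand: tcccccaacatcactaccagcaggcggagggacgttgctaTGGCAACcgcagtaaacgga
Tekt1, chr11:72361883-72361942, minus strand: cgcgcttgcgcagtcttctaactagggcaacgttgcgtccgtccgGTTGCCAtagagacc
The motif began 66 bases before the start in Sntn, 39 in Lrrc23, 80 in Deup1, 14 in Hydin, 20 in Cfap44 and 15 in Tekt1. Lrrc23 and Cfap44 each held 2 copies before the start, of which the one nearer to it is shown. Between 3w+Dox and withdrawal the signal of Sntn was higher by 3.36, that of Lrrc23, a radial spoke protein, by 2.44, and that of Deup1 by 2.18. Hydin, a central pair protein, gained 2.15, Cfap44 1.91 and Tekt1, a tektin of the doublet microtubules, 1.89.

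Secreted proteins of club cells divided into genes near Day0 and genes far below it. Scgb1a1, the main secretoglobin, read 13.52 at Day0, 12.62 at 3w+Dox and 13.04 in withdrawn cells, and Scgb3a1 read 13.28, 10.45 and 12.70. Both were within 2-fold of the fresh cells, but their Day0 values lie near the top of the range. Scgb3a2 (10.21, 6.25 and 8.81) was still 2.65-fold lower. Scgb1c1 read 12.83, 7.02 and 8.58, which left it 18.95-fold below Day0 at a Day0 level near that of Scgb3a1.

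Among 23 kept defence proteins, 11 were within 2-fold of Day0, and past 4-fold 4 were lower and 2 higher. The median was -0.73, and -0.19 over all 36 measured members. The antimicrobial lectin Reg3g read 12.14, 8.80 and 12.002, the closest return of the list. The haemoglobin-binding protein Hp (13.54, 10.21 and 12.66), the copper carrier Cp (12.77, 10.77 and 12.53) and Retnla (11.93, 9.17 and 11.21) were also back within 2-fold. The BPI-fold proteins differed among themselves. Bpifa1 read 13.28, 6.67 and 8.28, a 32.03-fold deficit, and Bpifb1 read 12.95, 6.35 and 9.73, a 9.38-fold deficit. Bpifb5 (8.24, 6.17 and 6.39) was 3.61-fold lower, and Bpifb9b (7.46, 6.9958 and 7.41) was near Day0 on both. Lypd2 behaved otherwise, at 12.67, 11.92 and 8.62, since its loss came after the drug was withdrawn. Dmbt1, a scavenger receptor protein of mucosal fluid, read 4.81, 5.75 and 8.06, and Gp2, a receptor for bacteria on epithelium, 8.09, 6.92 and 10.53. Those were the members above their fresh level by at least 4-fold.

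The detoxifying enzymes that mark club cells stayed low as a group. Of 23 kept cytochromes P450, reductases and flavin monooxygenases, 10 were at least 4-fold lower in withdrawn cells and 0 higher. The median was -1.58, where it had been -1.81 at 3w+Dox. Over all 31 measured members the withdrawn median was -1.17. Of the 10 members at least 4-fold low at 3w+Dox, 0 had come back within 2-fold. Cyp2b10 read 12.77 at Day0, 7.33 at 3w+Dox and 8.52 in withdrawn cells. The flavin monooxygenase Fmo2 read 12.74, 7.08 and 8.84, and Cyp39a1, an oxysterol hydroxylase, 11.76, 8.40 and 8.67. Cyp2a4 (7.86, 3.65 and 3.20) was at the dim end. Cyp3a13 was lower after withdrawal than on the drug (9.60, 7.79 and 4.98). Cyp2f2, the enzyme that activates naphthalene in club cells, read 13.83, 12.44 and 13.45, within 2-fold of Day0 after withdrawal, but its Day0 value is near the brightest on the array.

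Near the top of the range both outcomes occurred. Of 46 kept genes at or above 13 at Day0, 30 were within 2-fold of Day0 in withdrawn cells and 6 were at least 4-fold lower. The club cell marker Aldh1a1, an aldehyde dehydrogenase, lay between these limits. It read 13.74 at Day0, 12.91 on the drug and 11.88 in withdrawn cells. Aldh1a1 thus ended 3.62-fold below Day0 and, unlike Scgb1a1, Scgb3a1 and Cyp2f2, was lower after withdrawal than on the drug.

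**Figure D3:**
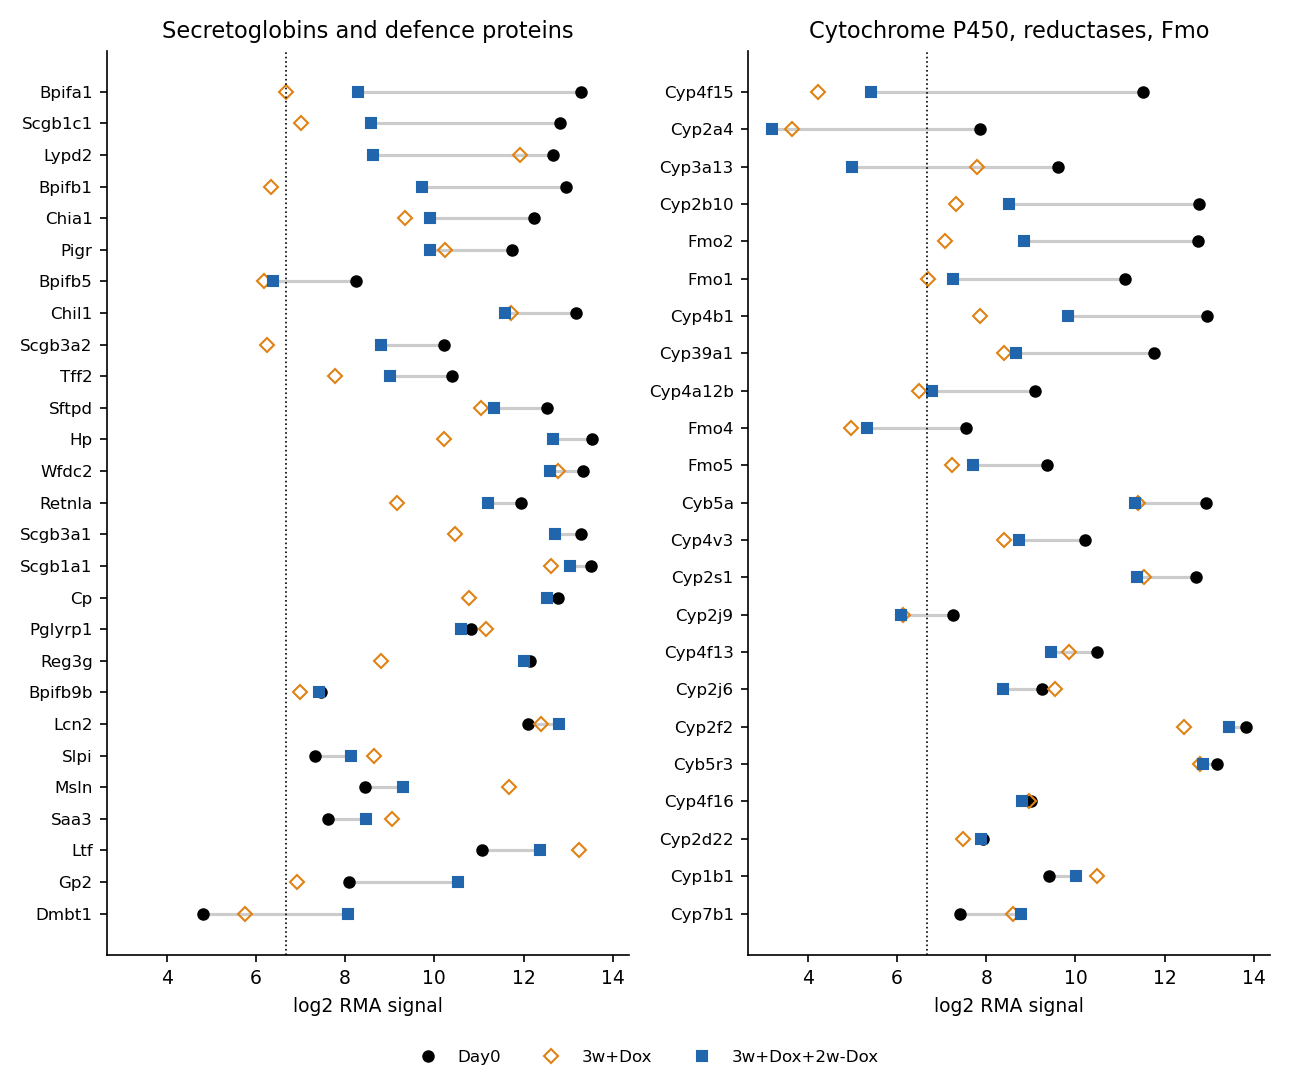
Log2 RMA signal at Day0 (black circle), at 3w+Dox (open diamond) and at 3w+Dox+2w-Dox (blue square) for kept secretoglobins and defence proteins (left) and for P450 enzymes, reductases and flavin monooxygenases (right), ordered by difference from Day0; the dotted line is 6.67, the median of all values. Reg3g, Cp and Scgb3a1 have blue squares next to black circles, while Bpifa1, Scgb1c1, Cyp4f15 and Cyp2b10 do not.

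Conjugating, hydrolysing and aldehyde-metabolising enzymes were low too, with 12 of 39 kept genes at least 4-fold lower, 1 higher and a median of -1.44. At 3w+Dox the median of the same genes was -1.05, so the list was further from Day0 after withdrawal. Over all 49 measured members the withdrawn median was -1.22. Of its 13 members at least 4-fold low at 3w+Dox, 0 were back within 2-fold. The carboxylesterases Ces1f (10.65, 4.53 and 5.87) and Ces1g (10.86, 6.36 and 7.46) stayed low. Sult1a1, another sulfotransferase, was lower still after withdrawal (10.08, 7.85 and 6.48). Adh7, an alcohol and retinol dehydrogenase, was level with the fresh cells at 3w+Dox and low after withdrawal (10.57, 10.47 and 6.84). Aldh3a1, an aldehyde dehydrogenase singled out after its values were seen, read 10.95, 12.52 and 7.66. Aldh3b1 (11.96, 9.59 and 10.95) was the member nearest to Day0 among those lost on the drug.

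Ion channels and transporters of airway epithelium were mostly below Day0 after withdrawal, with 10 of 35 kept genes at least 4-fold lower and 3 higher. At 3w+Dox 11 members had been at least 4-fold lower and 7 higher. The list median was -1.37 in withdrawn cells, and -0.73 for the same genes at 3w+Dox. Over all 41 measured members the withdrawn median was -0.78. The bile acid transporter relative Slc10a5 read 10.57, 4.21 and 4.79 on the Day0, 3w+Dox and withdrawn arrays, and Slc23a1 11.68, 5.99 and 6.78. Slc16a11, a monocarboxylate transporter relative, read 10.75, 8.02 and 7.12. The epithelial sodium channel subunits Scnn1b (12.81, 8.01 and 9.96) and Scnn1g (12.25, 8.13 and 9.52) were both at least 4-fold lower, and the chloride channel Cftr read 8.02, 5.69 and 5.52. These 3 were chosen for their known role in airway fluid after their values were seen. Slc2a3, a glucose transporter, lay 19.7-fold above Day0 (6.06, 9.88 and 10.36). Aqp3 (6.84, 9.78 and 6.19) and Slc9a4 (6.11, 9.16 and 6.80) had been high at 3w+Dox and were back.

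Alveolar type 2 genes, present in the Day0 RNA, divided between members near Day0 and members well below it. Of 24 kept, 15 (62.5%) were within 2-fold of Day0, against 72.3% of all kept genes, and 4 (16.7%) were at least 4-fold lower, against 3.29%. The median was -0.36. Sftpc, the surfactant protein specific to these cells, read 13.49, 13.39 and 13.54, and Sftpb 13.55, 13.08 and 13.34. Lamp3, a protein of lamellar bodies, read 10.80, 9.77 and 10.41. Sftpa1 (13.36, 11.42 and 11.43) and Abca3, the lipid transporter of lamellar bodies (11.98, 10.24 and 10.55), stood 2- to 4-fold lower. Sfta2 (11.58, 8.77 and 8.45), Hc (10.90, 8.04 and 8.12), Cd36 (12.67, 10.09 and 10.05) and S100g (9.43, 7.58 and 6.9997) were the 4 at least 4-fold low. The list of alveolar type 1 genes went both ways, with 5 of 26 kept genes lower, 6 higher and a median of 0.16, which became -0.48 with a brightness filter at the 75th percentile. Ager read 11.59, 9.50 and 9.79, while Cav1, the scaffold of caveolae that mesenchymal cells make too, read 7.58, 12.11 and 12.24.

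Of 39 kept genes in the list of lung epithelial transcription factors, 28 read below Day0. Within 2-fold of it were 20 (51.3%), against 72.3% of all kept genes. Past 4-fold 3 (7.69%) were lower, against 3.29% of all kept genes, and 3 (7.69%) higher, against 7.18%. The median was -0.92, against -0.88 at 3w+Dox. Elf5, an ETS factor, read 11.06, 6.28 and 6.73, a 20.1-fold deficit. The grainyhead factors Grhl1 (9.20, 7.01 and 6.21) and Grhl3 (8.09, 7.16 and 5.66), which govern epithelial barrier genes, were lower after withdrawal than on the drug. Tbx5, a T-box factor of lung mesenchyme that the list includes, was on the other side at 5.53, 8.10 and 8.48. Nkx2-1, the factor that sets lung identity, read 11.17, 9.93 and 10.07, just beyond 2-fold. It was named for that role after its value was seen.

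Notch signalling sets the balance of secretory and ciliated cells in the airway, and some of its target genes were low in withdrawn cells. Of 23 kept pathway genes, 12 (52.2%) were within 2-fold of Day0, against 72.3% of all kept genes. At least 4-fold lower were 2 (8.70%), against 3.29%, and 1 (4.35%) was higher, against 7.18%. The median was -0.58. The targets Nrarp (10.23, 7.06 and 6.47), Hey2 (8.70, 6.54 and 6.42) and Hes1 (12.51, 10.58 and 10.58) had not moved back after withdrawal. The ligand Dlk1 read 6.91, 10.40 and 9.55. Of the receptors, Notch1 was 2.47-fold below Day0 (10.22, 8.88 and 8.91) and Notch2 within 2-fold (11.15, 10.38 and 10.31), both named after their values were seen.

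Genes of epithelial junctions and identity were further from Day0 after withdrawal than on the drug. Of 44 kept genes, 40 read below Day0, 24 of them between 2- and 4-fold and 7 at least 4-fold. Their median was -1.30 in withdrawn cells and -0.41 at 3w+Dox. Krt23 (9.98, 5.34 and 5.38), Cldn10 (11.37, 6.22 and 6.78) and Cldn8 (10.98, 5.56 and 6.43), a keratin and a pair of tight junction claudins, had been lost on the drug and stayed low. Prss8, a membrane protease that activates the sodium channel, read 12.48, 9.97 and 9.51. The common epithelial markers Epcam (11.19, 10.77 and 10.18) and Cdh1, the adherens junction cadherin (12.56, 12.20 and 11.48), were each just over 2-fold lower. Cldn1 went the other way (5.92, 8.57 and 8.37).

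A small group of 15 genes was within 2-fold of Day0 at 3w+Dox and at least 4-fold lower after withdrawal. Lypd2 and Adh7 had the largest such differences, 16.6-fold and 13.3-fold, followed by Ttc36 (9.80, 9.02 and 6.79) and Lrrc26, a potassium channel subunit of secretory epithelium (12.68, 12.24 and 10.01). The 10 largest also held Grhl3, Oit1, Ppl, Smim31, Lypd6b and Eps8l1, and the cornified envelope and desmosome linker Ppl read 10.17, 9.24 and 7.82. The 16 late higher genes began with Smr2, which read 4.61, 5.24 and 8.88. Plxdc1 (6.36, 6.97 and 9.68), Dmbt1 and Reg1, a lectin related to Reg3g (4.62, 4.92 and 7.78), came next. Ccl8, Elobl, Ace, Gdf7, Zmat4 and Cd200r4 completed the 10 largest. With the floor at 5.07 the last of these, Cd200r4 (4.47, 4.91 and 6.83), no longer reached 4-fold, at 1.76.

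Mucous and squamous genes were among those that returned from furthest above Day0. Muc5ac, the mucin of goblet cells, read 8.27 at Day0, 13.002 at 3w+Dox and 8.80 in withdrawn cells. Nccrp1 read 6.88, 12.81 and 7.20, and the keratin Krt13 5.96, 10.92 and 5.54. Saa1, an acute phase protein, Fam3b, Cwh43, the cornified envelope gene Sprr2b, Anxa9, Gsdmc2 and Upk3bl made up the rest of the 10 that came back from furthest. These genes and Krt13 were below 6.67 both at Day0 and in withdrawn cells, so their return was to dim signals (Saa1 3.03 and 2.71). In the goblet cell list, 5 of 6 members that had been at least 4-fold high at 3w+Dox were back within 2-fold, and in the squamous list 4 of 7. The transglutaminase Tgm1 (7.77, 11.39 and 7.63) was among them.

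Of the 4 genes that crossed over, Clca1, a protein secreted with mucus, read 9.15, 12.02 and 5.49, and so ended 12.6-fold below the fresh cells. Slurp1, a secreted squamous protein, read 7.14, 12.72 and 5.99. Klk1 (6.76, 10.59 and 4.41) and Mucl3 (6.52, 9.36 and 5.29) ended at dim signals, and with signals below 5.07 raised to it Klk1 stood 1.69 below Day0 in place of 2.35. Ly6g6c, of the squamous list, was bright at Day0, higher on the drug and 17.8-fold below Day0 at the end (11.87, 13.24 and 7.71). Over all 18 kept goblet cell genes, 9 were within 2-fold, 3 at least 4-fold lower and 0 higher. Muc20 (9.85, 8.05 and 7.33) was lower with them, while Agr2, a disulfide isomerase needed to fold mucins, had returned (9.79, 7.23 and 9.04).

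**Figure D4:**
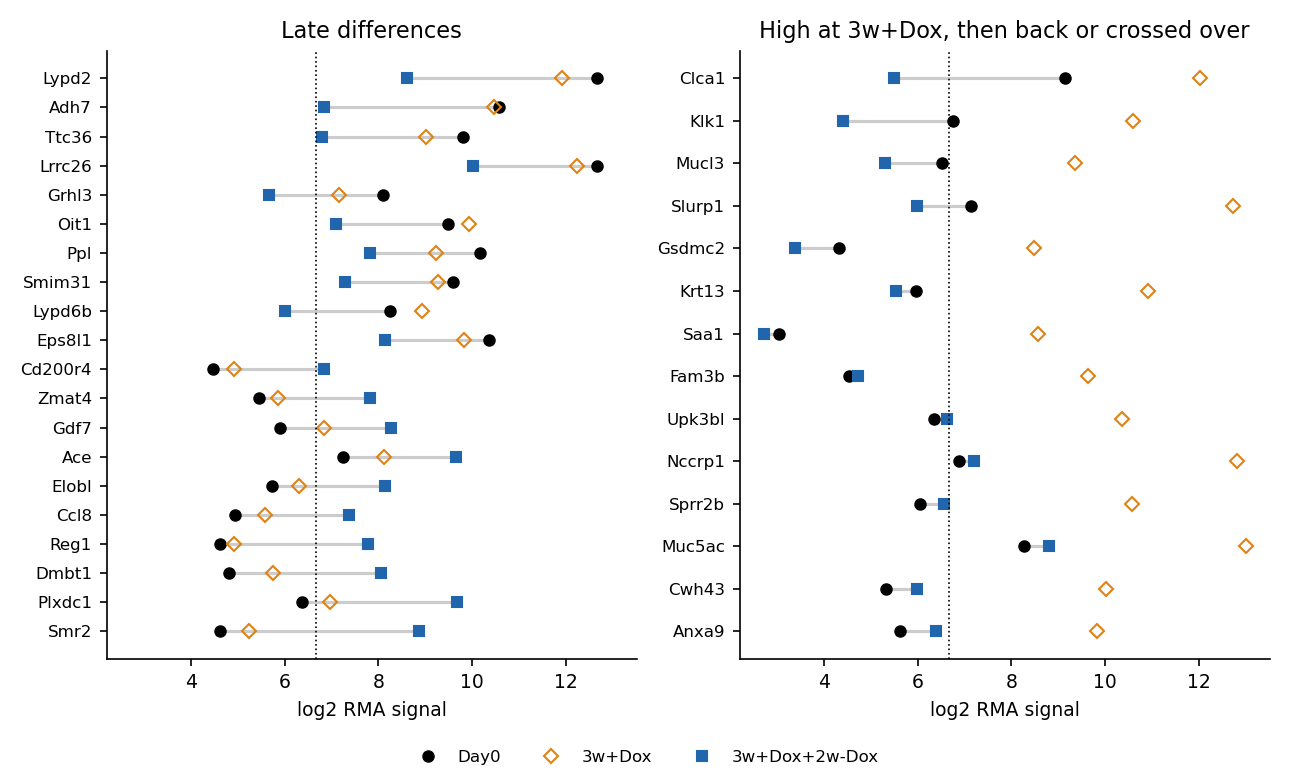
Log2 RMA signal at Day0 (black circle), at 3w+Dox (open diamond) and at 3w+Dox+2w-Dox (blue square) for the 10 largest late differences in each direction (left) and for 10 genes back from furthest above Day0 with the 4 that crossed below it (right); the dotted line is 6.67. On the left the diamond lies with the circle and the square apart. On the right the diamond stands alone for the 10 genes that came back, and for the 4 that crossed the square also lies apart, below the circle.

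What stayed high was led by genes of fibroblasts. Of 51 kept fibroblast and mesenchyme genes, 48 were at least 4-fold above Day0 in withdrawn cells and 0 below, with a median of 4.92, against 4.84 at 3w+Dox. All 48 had been at least 4-fold high at 3w+Dox and 0 had come back. The collagen Col1a1 read 6.73, 12.84 and 12.53, the platelet-derived growth factor receptor Pdgfra 5.64, 10.53 and 10.87, and the mesenchymal factor Prrx1 5.77, 12.11 and 12.27. At Day0, 14 of the 51 genes reached 6.67 and in withdrawn cells 50 did, and the median over all 53 measured members was 4.80. The sum of their signals on the linear scale was 10890 at Day0 and 200100 in withdrawn cells. Contractile genes were alike, with 18 of 28 kept genes higher, 0 lower and a median of 2.83 (2.51 over all 30 measured). Of the 28, 13 reached 6.67 at Day0. Acta2, the actin of smooth muscle and myofibroblasts, read 7.36, 13.23 and 13.07, and calponin, Cnn1, 5.02, 11.98 and 11.50.

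Myeloid genes were high as well. Of 28 kept genes of macrophages and other myeloid cells, 24 were at least 4-fold above Day0 and 0 below. The median was 3.46, and 3.13 for the same genes at 3w+Dox. Trem2, a lipid receptor of macrophages, read 6.20, 10.42 and 11.54, the complement gene C1qb 6.30, 11.32 and 11.33, and the leukocyte phosphatase Ptprc 4.70, 7.44 and 7.27. At Day0, 5 of the 28 reached 6.67 and in withdrawn cells all 28 did. Over all 36 measured members the summed linear signal was 4191 at Day0 and 35080 in withdrawn cells, and the median difference was 2.78. The lymphocyte genes Cd3e and Cd79a were below 6.67 on both arrays, and Cd79b was the 1 kept member of their list (9.55, 6.47 and 6.61).

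Among 11 kept endothelial genes, of which 4 reached 6.67 at Day0, 3 were higher and 1, Kdr, was lower. Kdr read 11.57, 5.89 and 6.12, while the defining endothelial genes Pecam1 (5.50 at Day0 and 5.53 in withdrawn cells) and Cdh5 (6.33 and 5.83) were below 6.67 on both arrays. The part that other cell types play in the results on epithelial genes was not tested.

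Many secreted signals stayed high. Of 29 kept chemokines and cytokines, 15 were at least 4-fold higher in withdrawn cells and 0 lower, with a median of 2.09 and of 1.62 at 3w+Dox. Most were kept through the withdrawn array, since 12 of the 29 reached 6.67 at Day0 and 27 in withdrawn cells, and over all 38 measured members the median was 1.46. Csf1, the growth factor of macrophages, read 6.63, 11.72 and 12.25. The chemokine Ccl7 read 5.95, 11.25 and 11.79 and Cxcl12 6.64, 11.26 and 11.92. Tnf (6.33, 10.31 and 8.66) was lower than on the drug but still more than 4-fold above Day0. In the TGF-beta and BMP pathway 13 of 39 kept genes were higher and 2 lower, with a median of 0.90. The activin subunit Inhba (5.97, 11.48 and 11.63) and the BMP antagonist Grem1 (6.67, 11.65 and 12.29) had the largest differences, followed by the latent TGF-beta binding proteins Ltbp1 (5.86, 10.56 and 10.40) and Ltbp2 (7.55, 11.995 and 11.72) and the ligand Tgfb1 (7.01, 10.46 and 10.98). The receptor Bmpr1b (10.29, 7.74 and 8.10) and the ligand Bmp5 (11.52, 9.47 and 9.42) were the lower members.

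In the Wnt pathway 12 of 40 kept genes were higher and 1 lower, with a median of 0.92. Of the 40, 27 reached 6.67 at Day0 and all did in withdrawn cells, and over all 49 measured members the median was 0.47. The secreted inhibitor Frzb read 4.39, 9.02 and 9.95, the R-spondin receptor Lgr5 5.78, 10.91 and 10.67, and its ligand Rspo3 5.54, 10.07 and 9.70. The feedback target Axin2, named for that role after its value was seen, was within 2-fold of Day0 (6.70, 6.88 and 6.94). Fibroblast genes were high on the same array, and their part in these pathway values was not tested.

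Among genes of glycolysis and the hypoxia response 10 of 34 kept were higher and 0 lower, with a median of 0.87. The hypoxia-induced hydroxylase Egln3 read 4.90, 12.52 and 12.12 and the peptide hormone Adm 4.70, 9.18 and 10.27. Ndrg1 (6.88, 12.21 and 10.96) was lower than on the drug but far above Day0.

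Basal cell genes were mixed, with 6 of 17 kept genes higher and 0 lower, of which 11 reached 6.67 at Day0. The defining keratins Krt5 (6.20 at Day0 and 6.56 in withdrawn cells) and Krt14 (5.77 and 6.002) stayed below 6.67, and the basal factor Trp63 read 6.10 and 7.21. The higher members were Snai2, Igfbp2, Cdh3, Serpinb5, Pdpn and Dapl1. Snai2, which fibroblasts also express, read 6.09, 11.74 and 12.10.

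Of 35 kept proliferation genes, 28 (80%) were within 2-fold, close to the 72.3% of all kept genes, 29 read above Day0, and past 4-fold 1 was higher and 0 lower. The median was 0.43. E2f1, a factor of S phase entry, was the higher one (7.46, 9.06 and 9.55). Of 28 kept cell cycle inhibitors, p53 targets and senescence genes, 6 were higher and 0 lower. The largest differences were in the secreted insulin-like growth factor binding proteins Igfbp3 (6.52, 12.41 and 12.60) and Igfbp4 (6.59, 11.48 and 11.07), and Igfbp7 and Phlda3 were among the 6. Cdkn1a, the inhibitor p21, read 11.09, 13.33 and 13.37, and Cdkn2b 7.53, 10.34 and 10.51.

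Of 4 measured reprogramming factors 3 were kept, the other being below 6.67 both at Day0 and in withdrawn cells. Klf4 was back within 2-fold (8.60, 10.72 and 9.44). Myc was lower than on the drug but still 4.39-fold above Day0 (7.62, 10.79 and 9.75), and Sox2 was 3.49-fold lower (10.65, 8.44 and 8.85). Positions of the probes were not examined, so whether these signals include RNA of a transgene was not tested. Of 35 measured pluripotency genes 7 were kept, of which 5 were within 2-fold of Day0 and 0 were at least 4-fold higher or lower.

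**Figure D5:**
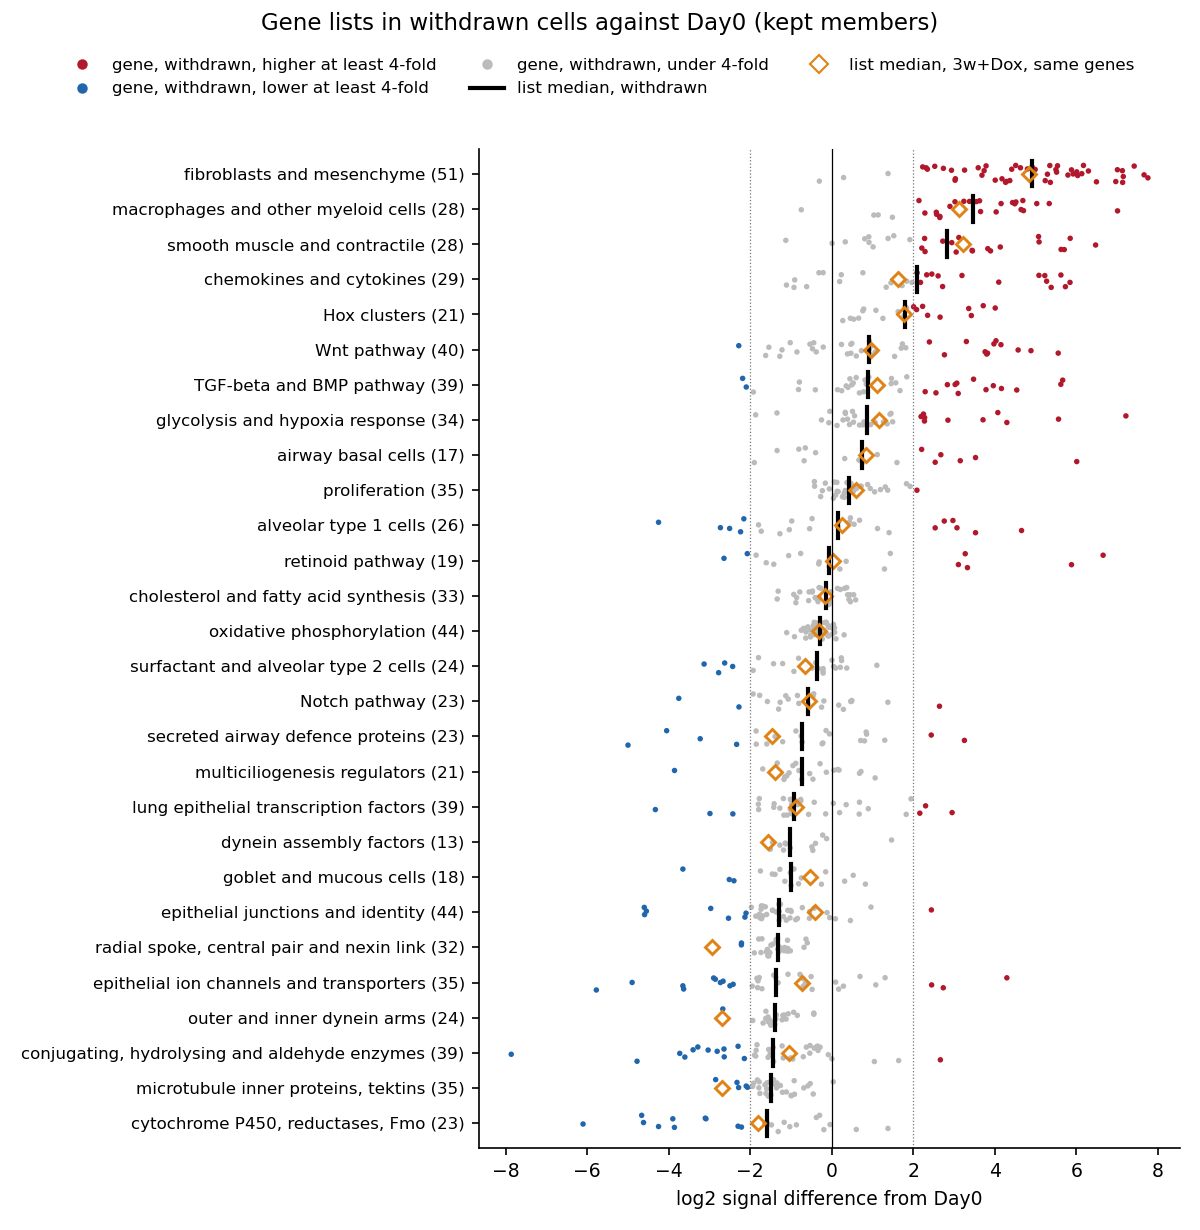
Log2 signal difference from Day0 (horizontal) for 28 gene lists, with the number of kept genes in brackets; points are genes in withdrawn cells, black bars their median and orange diamonds the median of the same genes at 3w+Dox, and dotted lines mark 4-fold. For cilium lists the bar lies closer to 0 than the diamond, for epithelial junctions it lies further away, and for fibroblasts the 2 nearly coincide at 4.92 and 4.84.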

How the data were processed

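RNA of 4 populations, 1 array each, was measured on Affymetrix arrays. The values analysed are deposited log2 signals. Tools listed by the submitters' processing notes, without their order, are RMA, affy and R 3.0.2. RMA in general corrects background, applies quantile normalization and summarises probes by median polish. Annotation version and genome build: not given in the sources used here. Of 25206 probe sets, 23185 had 1 gene symbol in the platform annotation, 0 had several and 2021 had none and were left out. Groups came from the sample titles. The number of arrays, 1 per population, limits the precision.

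Differences are withdrawn minus Day0, with no further normalization. A gene was kept where its brighter array reached the median of all values (6.67), and counted as higher or lower from 2 log2 units (4-fold). "Back" means within 1 log2 unit (2-fold). Comparison code was tested on simulated data. The 41 gene lists name 1310 genes, of which 1256 were measured, 17 through another symbol; 41 genes stand in more than 1 list.

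Genes named are the 15 largest increases and decreases without predicted genes, receptor families, immune receptor segments, histones and small RNAs; up to 5 members of each list furthest from Day0; up to 4 nearest to it among those 4-fold changed at 3w+Dox; the 10 largest late and returned differences; genes that crossed over; and cell type markers. Any other gene named was chosen after its value was seen. The comparison, the lists and these rules were chosen with earlier results of these data known. Alternatives were other thresholds (2-fold, 8-fold), no brightness filter or one at the 75th percentile (8.82), a second quantile normalization, median centring, and a floor at the 25th percentile (5.07). Promoter letters came from the RefSeq table. Python 3.11.15, numpy 2.4.6, pandas 2.3.3 and matplotlib 3.10.9 were used.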

Additional observations from a re-analysis of the deposited data

Results flagged for a closer look

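Probe sets without a gene symbol were in none of the comparisons above but carried signal differences of the same size. Of 2021 such probe sets, 808 reached 6.67 on the brighter of the 2 arrays, 53 were at least 4-fold higher in withdrawn cells than at Day0, and 27 were at least 4-fold lower.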

How the results depend on the processing

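With 1 array per population, leaving out a replicate is not possible. No paired analysis was possible because each population has 1 array and all carry replicate number 1. At a 2-fold threshold 1821 genes were higher and 1800 lower than at Day0, and at 8-fold 511 and 124, so the excess of higher genes appears at the larger folds. Without the brightness filter 82.6% of genes were within 2-fold of Day0, and with the filter at the 75th percentile 70.0%. The stricter filter left fewer genes: 16 low genes and 44 high genes were back, and 4 genes were late higher. The other overall counts stayed within 1.5 times the main value under every alternative run. A second quantile normalization moved the median of the kept genes by 0.0033, median centring by 0.0322 and the floor by 0. Small list counts moved too. The stricter filter took the higher members of the defence list from 2 to 1, of lung transcription factors from 3 to 0, of conjugating enzymes and of junctions from 1 to 0, of the retinoid list from 5 to 3 and of Hox genes from 9 to 2. It took lower members from 5 to 3 (microtubule inner proteins), 2 to 1 (Notch, fatty acid oxidation) and 1 to 0 (dynein arms, neuroendocrine), and the medians of squamous, chemokine and Hox lists to -1.26, 4.10 and 3.72. Dynein arms went from 1 lower to 0 with the floor, dynein assembly factors from 0 to 1 without the filter, neuroendocrine genes from 1 to 2 with the second normalization and pluripotency genes from 0 to 1 higher when centred. The lymphocyte list, with 1 kept gene, had a median of -2.94, and -0.16 without the filter. The medians of 3 lists that lie near 0 (pluripotency, clock and alveolar type 1) changed sign under at least 1 setting, and no other value did. Of 323 named genes the normalization moved 2 across the 4-fold line (Snap25 to -2.06 and Hoxa11 to 2.00), centring 1 (Tbx3 to 2.02) and the floor 3 (Cd200r4 to 1.76, Klk1 to -1.69 and Dnah7a to -1.93). Signals near background bound the folds: 142 higher genes had Day0 values and 36 lower genes had withdrawn values below the 25th percentile.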

Other observations

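Of 22 kept clock genes 2 (9.09%) were at least 4-fold lower, against 3.29% of all kept genes, and 0 were higher. Within 2-fold were 12 (54.5%), against 72.3%. Arntl, the activator of the loop, read 7.43 at Day0, 8.82 at 3w+Dox and 9.21 in withdrawn cells. Among the other members, Per2 read 10.34, 8.06 and 8.14, Tef 10.09, 7.93 and 7.68, Ciart 9.79, 8.31 and 7.97, and Cry2 9.65, 7.94 and 7.97. Labels give no time of day for the harvests. Immediate early and heat shock genes, which cell isolation is known to induce, were lower after culture in part. Of 31 kept, 3 were at least 4-fold lower and 1 higher, with a median of -0.84. The chaperones Hspa1a (12.53, 9.65 and 9.08) and Hspa1b (11.71, 9.26 and 8.39), near-identical copies whose signals cannot be separated with certainty, and Ier2 (10.32, 8.60 and 8.13) were the lower ones, and Fosl1 (7.59, 9.58 and 10.29) the higher one.

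Of 21 kept Hox genes 9 were at least 4-fold higher and 0 lower. At Day0 1 of the 21 reached 6.67, so the others were kept through the withdrawn array and had to be higher. The median was 1.80 over the 21 and 0.95 over all 38 measured, and 2 were higher with the brightness filter at the 75th percentile. Hoxc6 read 5.49, 9.03 and 9.50, Hoxd13 5.78, 9.22 and 9.50, and Hoxa10 5.06, 8.26 and 8.42. In the retinoid pathway the binding protein Crabp1 read 6.22, 11.997 and 12.87 and Rarres1 4.63, 9.75 and 10.51, among 5 of 19 kept genes higher and 2 lower. Of 12 kept MHC class II genes 7 were within 2-fold, and the 1 past 4-fold was the protease Ctss (5.99, 8.96 and 9.54), which macrophages express. H2-Ab1 read 9.64, 9.63 and 10.97. The interferon and MHC class I list was near Day0, with 25 of 29 kept genes within 2-fold and a median of -0.14. Among neuroendocrine genes 7 of 10 kept were within 2-fold, close to the 72.3% of all genes, and Resp18 read 8.80, 5.32 and 5.32. Metabolic lists lay near Day0: 43 of 44 kept genes of oxidative phosphorylation and 31 of 33 of cholesterol and fatty acid synthesis were within 2-fold. In fatty acid oxidation 2 of 28 (7.14%) were at least 4-fold lower, against 3.29% of all kept genes. They were the regulators Ppara (7.87, 5.43 and 5.61) and Ppargc1a (9.48, 6.61 and 7.25), and Cpt1c was higher (6.65, 9.22 and 9.81).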
